A study of Mus musculus with 17 samples.

Results

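Keratins are the intermediate filament proteins of epithelial cells. The simple epithelial keratins *Krt7*, *Krt8*, *Krt18* and *Krt19* and the type I keratin *Krt42* were followed in mouse embryonic stem cells during retinoic acid (RA) treatment. These 5 genes, of 54532 listed in the expression table and of 54 keratin genes in it, were taken by symbol. They had been picked with their expression in these same libraries in view, so their own levels and changes are given as a description, without p-values. The cells were of the R1 line (R1/E), either wild-type (WT) or *Usb1* knockout (KO), and were profiled by RNA-seq without RA (day 0), after 1 day of RA (day 1) and after 3 days of RA (day 3). *Usb1* encodes the phosphodiesterase that trims the 3′ end of U6 snRNA. WT cells at day 0 had 2 libraries and each of the other 5 groups had 3, so that 17 libraries in all were compared. The knockout was made with CRISPR/Cas9, and its libraries came from 1 line, KO-1, so an effect of the knockout and a difference between clones cannot be told apart. The RA dose is not given in the sources used here. The study asked with this design whether *Usb1* is needed for pluripotency.

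A keratin filament is built from pairs of a type I and a type II protein, so a cell that makes filaments needs both. *Krt8* and *Krt7* are type II and *Krt18*, *Krt19* and *Krt42* are type I. *Krt8* and *Krt18* are the usual pair of simple, single-layered epithelia and are among the earliest keratins of the mammalian embryo, where trophectoderm and extraembryonic endoderm make them. *Krt19* is a type I partner of *Krt8* in many simple epithelia, *Krt7* is found in ducts, mesothelium and trophoblast, and *Krt17* is known from skin appendages and from stressed or proliferating epidermis. The role of *Krt42* is less well described. In GRCm38 the type I genes *Krt19* (chr11:100140810-100148665, minus strand, ENSMUSG00000020911) and *Krt42* (chr11:100262882-100269871, minus strand, ENSMUSG00000053654) lie in the type I cluster of chromosome 11. *Krt15* is the nearest coding gene to *Krt19*, 4881 bases away, and *Krt17* is the nearest to *Krt42*, 1852 bases away. The type II genes *Krt7* (chr15:101411043-101430313, plus strand, ENSMUSG00000023039) and *Krt8* (chr15:101996698-102004482, minus strand, ENSMUSG00000049382) lie on chromosome 15. *Krt18* (chr15:102028180-102032027, plus strand, ENSMUSG00000023043) lies there too, although it is a type I gene, and its start faces that of *Krt8* across 23697 bases.

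Promoter windows are shown for *Krt8* and *Krt18*, which rose together over the treatment, and for *Krt42*, which fell. Each holds 250 bases before and 50 bases after the RefSeq start on GRCm38.p6, read 5′ to 3′ on the strand of the gene. Capitals mark matches, on either strand, to short motifs. The letters searched were TATAAA for the TATA box, CCAAT for the CCAAT box, GGGCGG for the GC box and TGANTCA for AP-1. For AP-2 they were GCCNNNGGC, for ETS factors CCGGAA and for GATA factors AGATAA. The retinoic acid response element was written as AGNTCA repeated once in the same direction with 5 bases between the copies. The *Krt8* window is chr15:102004293-102004592, minus strand, the *Krt18* window is chr15:102027966-102028265, plus strand, and the *Krt42* window is chr11:100269902-100270201, minus strand.
Krt8: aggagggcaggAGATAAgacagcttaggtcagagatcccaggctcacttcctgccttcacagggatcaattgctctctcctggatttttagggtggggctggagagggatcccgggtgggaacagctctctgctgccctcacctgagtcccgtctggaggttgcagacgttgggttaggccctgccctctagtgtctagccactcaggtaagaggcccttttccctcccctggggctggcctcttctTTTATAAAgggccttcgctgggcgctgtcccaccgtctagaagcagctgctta
Krt18: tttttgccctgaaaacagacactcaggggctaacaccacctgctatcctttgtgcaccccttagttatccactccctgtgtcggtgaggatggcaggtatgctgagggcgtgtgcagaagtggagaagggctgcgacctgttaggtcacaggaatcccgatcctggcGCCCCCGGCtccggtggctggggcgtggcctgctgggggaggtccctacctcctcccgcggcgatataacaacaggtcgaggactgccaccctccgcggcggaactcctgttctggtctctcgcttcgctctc
Krt42: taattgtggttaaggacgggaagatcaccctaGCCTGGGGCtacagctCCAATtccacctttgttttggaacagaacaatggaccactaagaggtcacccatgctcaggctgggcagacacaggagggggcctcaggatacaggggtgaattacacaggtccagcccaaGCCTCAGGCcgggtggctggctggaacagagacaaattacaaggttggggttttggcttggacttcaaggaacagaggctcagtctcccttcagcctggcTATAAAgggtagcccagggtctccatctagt
Counted from the RefSeq start, the *Krt8* window held the GATA letters at -239 and the TATA letters at -1, where they overlap a match on the other strand. In the *Krt18* window the AP-2 letters stood at -83. The *Krt42* window held the TATA letters at 20, after the start, the CCAAT letters at -202 and the AP-2 letters at -218 and -81. The window of *Krt7*, not printed, held 4 GC boxes and 2 AP-2 matches. Over 32851 promoter windows of the same length, 13.6% held the TATA box, 37.4% the CCAAT box, 35.7% the GC box, 7.81% the AP-1 letters, 16.6% the AP-2 letters, 14.9% the ETS letters, 11.2% the GATA letters and 0.204% the retinoic acid response element. The letters of the last were in none of the 4 windows of *Krt7*, *Krt8*, *Krt18* and *Krt42*. At so small a share their absence says little about these promoters, and other spacings of the repeat were not searched. A match is a run of letters, not a shown binding site.

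Levels are in TPM, transcripts scaled to the same total in each library, which the authors calculated from the reads on a gene and its length, so that levels of different genes can be set side by side per length. Between 15404379 and 17300186 reads on genes stood behind each library, recovered from TPM and exon length. *Krt7* has 7049 bases of annotated exon against 1437 for *Krt18* and 1958 for *Krt8*. WT replicate 1 at day 0 stood apart: only 239 genes had 1 read in it, against 1352 in replicate 2, and 17090 genes were above 0 in it, against 22314. Replicate 1 of the KO at day 3 also had few genes with 1 read (1224, against 2428 and 2467). *Usb1* itself was at 39.95 and 37.1 TPM in the WT libraries at day 0 and between 15.2 and 17.9 TPM in the 3 KO libraries (log2 change -1.20 ± 0.12, SE, limma adjusted p = 3.23e-05). At day 1 and day 3 it was again lower in every KO library than in every WT library, by 2.60 and 1.94 times on the means.

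The 4 simple keratins rose at day 3 in both genotypes, and *Krt8* and *Krt18* came to rank among the 21 most abundant protein-coding genes. *Krt42* moved the other way. At day 0 *Krt8* was the highest simple keratin, with 36.5 and 40.4 TPM in WT cells. By day 1 it was at 61.7, 57.0 and 67.3 TPM, and by day 3 at 2747, 2884 and 2799 TPM. The groups of each day did not overlap, and the step from day 1 to day 3 was far larger than the step from day 0 to day 1. In KO cells *Krt8* was at 62.6, 70.1 and 67.2 TPM at day 0, at 75.7, 71.9 and 78.3 TPM at day 1, and finally at 3089, 2769 and 2590 TPM at day 3. Among 22046 protein-coding genes *Krt8* ranked 4485th by mean TPM in WT cells at day 0 and 13th at day 3, and in KO cells it moved from 2646th to 14th. The ratio of mean TPM at day 3 to day 0 was 73.2 in WT and 42.3 in KO cells. The KO started from a higher level and ended at a mean close to that of WT cells, 2816 ± 253 TPM (SD, n = 3) against 2810.05 ± 69.0 TPM (SD, n = 3).

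**Figure D1:**
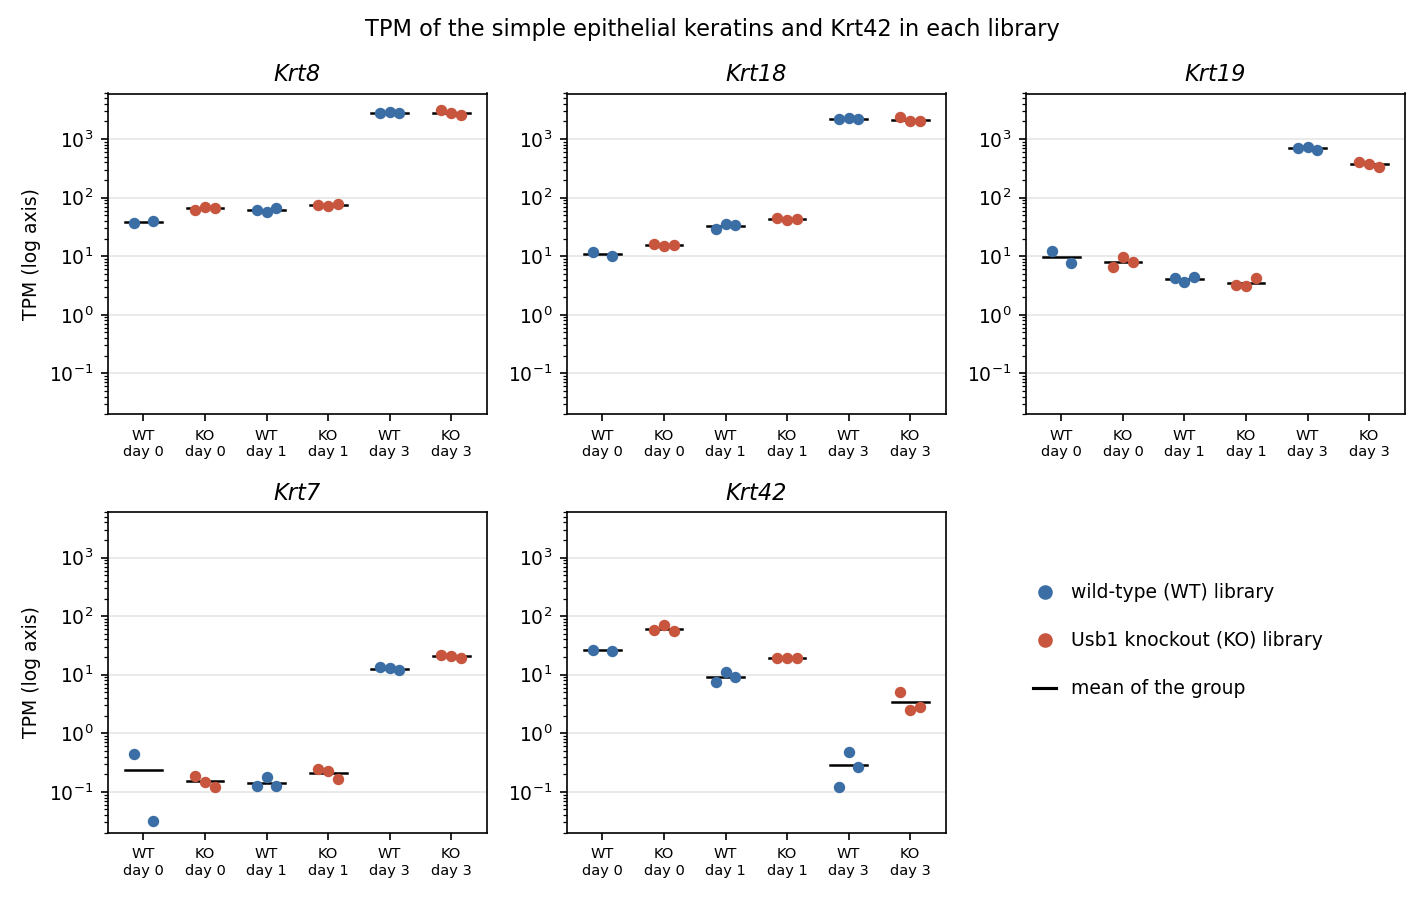
TPM (log axis) of the simple epithelial keratins and *Krt42* in each of the 17 libraries, with WT in blue, KO in red and a line at each group mean. *Krt8* and *Krt18* end at 2001 TPM or more at day 3 in every library while *Krt42* falls to between 0.123 and 5.16 TPM.

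*Krt18*, the type I partner of *Krt8*, had the largest ratio of day 3 to day 0 among *Krt8*, *Krt18* and *Krt19*. It was at 11.9 and 10.1 TPM in the WT libraries at day 0, at 29.4, 35.9 and 34.2 TPM at day 1, and finally at 2209, 2253 and 2182 TPM at day 3. In KO cells it was at 16.1, 14.7 and 15.6 TPM at day 0, at 45.5, 41.0 and 43.7 TPM at day 1, and finally at 2390.5, 2024 and 2001 TPM at day 3. The ratio of mean TPM at day 3 to day 0 was 201 in WT and 138 in KO cells. On the log2(TPM + 1) scale used below, the change to day 1 was 1.51 ± 0.095 (SE) in WT and 1.43 ± 0.085 (SE) in KO cells.

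*Krt19*, another type I partner of *Krt8*, dipped at day 1 before it rose. It started at 12.2 and 7.55 TPM in WT cells, went to 4.26, 3.66 and 4.39 TPM at day 1, and to 710.2, 734.6 and 658 TPM at day 3. In KO cells it started at 6.54, 9.82 and 7.84 TPM, went to 3.201, 3.06 and 4.24 TPM at day 1, and to 413, 380.2 and 336 TPM at day 3. Every library at day 1 was below every library at day 0, and the log2 change was -1.06 ± 0.18 (SE) in WT and -1.004 ± 0.16 (SE) in KO cells. Without the WT library that stands apart, the WT dip was -0.75. At day 3 the genotypes did not overlap: the mean was 700.8 ± 39.3 TPM (SD, n = 3) in WT and 376 ± 38.6 TPM (SD, n = 3) in KO cells, a ratio of 1.86.

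*Krt7*, the other type II member, was nearly silent until day 3. At day 0 and day 1 it was below 0.45 TPM in all 11 libraries, and 1 to 15 reads stood behind those values, the 15 in the WT library that stands apart. At day 3 its libraries stood at 13.3, 13.0 and 11.9 TPM in WT and at 21.95, 20.7 and 19.5 TPM in KO cells, so it was higher in each KO library than in any WT library. Its log2 change from day 0 to day 3 was 3.49 ± 0.17 (SE) in WT and 4.24 ± 0.15 (SE) in KO cells. With a pseudocount of 0.1 in place of 1 these became 5.58 and 6.37, since the pseudocount holds down the change of a gene this low.

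*Krt42* was the member that fell with RA and that differed most between the genotypes. In WT cells it stood at 26.6 and 25.2 TPM at day 0, then at 7.60, 11.1 and 9.24 TPM at day 1, and finally at 0.123, 0.479 and 0.263 TPM at day 3. Only 1, 4 and 2 reads stood behind the day 3 values. In KO cells it was at 58.2, 70.0 and 56.1 TPM at day 0, at 19.6, 19.6 and 19.5 TPM at day 1, and finally at 5.16, 2.45 and 2.77 TPM at day 3, the last with 47, 19 and 23 reads. At each day every KO library was above every WT library. The mean was 2.37 times higher in the KO at day 0 (log2 change 1.21 ± 0.22, SE) and 2.104 times higher at day 1 (1.011 ± 0.19, SE). At day 3 the log2 change was 1.75 ± 0.19 (SE), and it was 3.23 with a pseudocount of 0.1. Leaving out replicate 1 of the KO at day 3 gave 1.496. From day 0 to day 3 *Krt42* changed by -4.39 ± 0.22 (SE) on the log2 scale in WT and by -3.85 ± 0.19 (SE) in KO cells.

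In the limma fit across 21871 genes with at least 1 TPM in at least 2 libraries, calls needed an adjusted p under 0.05 together with a change of at least 2-fold. All 5 members passed the filter on low values, *Krt7* only through its libraries of day 3, the day at which it was high. Its call for RA at day 3 is therefore no support for its rise. For KO against WT cells, *Krt42* was the 1 member of 5 called at each day, where 3.05% of all tested genes were called at day 0, 2.22% at day 1 and 1.29% at day 3. For RA at day 1, 3 of 5 were called in WT cells (13.9% of all genes) and 3 of 5 in KO cells (6.95%), with *Krt18* higher and *Krt19* and *Krt42* lower in each. For RA at day 3, all 5 were called in WT (25.8%) and in KO cells (21.9%), with 4 higher and *Krt42* lower. For the difference between the genotypes in the RA response, 0.86% of all genes were called at day 1 and 2.42% at day 3. The log2 differences of the members, all under 2-fold with the pseudocount of 1, ran from -0.50 (*Krt8*) to 0.17 (*Krt7*) at day 1 and from -0.78 (*Krt8*) to 0.75 (*Krt7*) at day 3, where *Krt42* had 0.54. With a pseudocount of 0.1 the *Krt42* value at day 3 was 1.99 ± 0.46 (SE) and with voom on recovered reads 2.098 ± 0.64 (SE), the largest in size of the 5 members in both. Some calls stood close to the 2-fold threshold: *Krt42* at day 1 was at 0.89 without replicate 1 of the WT libraries of that day, and the dip of *Krt19* in KO cells was at -0.87 without replicate 2 at day 0. These counts describe genes that were picked on such changes. The responses at day 1 and day 3 share their day 0 libraries. Over all tested genes the median log2 change was 0.17 for RA at day 1 and 0.10 at day 3 in WT cells, 0.02 and 0.03 in KO cells, and 0.00, -0.13 and 0.00 for the KO at day 0, 1 and 3. Quantile normalization moved the 0.17 to 0.00 and the -0.13 to 0.01, and scaling to an equal median moved the 0.03 of KO cells at day 3 to -0.18, so changes of this size depend on the scaling.

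Below the calling threshold, the KO libraries were above all WT libraries for *Krt8* at day 0 (log2 change 0.78 ± 0.082, SE) and at day 1 (0.28 ± 0.073, SE), and for *Krt18* at day 0 (0.46 ± 0.095, SE) and at day 1 (0.38 ± 0.085, SE). At day 3 the genotypes overlapped for both. At each day the groups did not overlap for 3 of the 5 members, with *Krt42* always among them. Such genes made up 36.6% of tested genes at day 0, 39.8% at day 1 and 22.0% at day 3 in this comparison. At day 3 *Krt7* was higher by 0.66 ± 0.15 (SE) in the KO, and *Krt19* differed by -0.90 ± 0.16 (SE).

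The reads of *Krt8* can be confused with those of a copy. Of its 50-base stretches, 29.7% occur in other annotated genes, 26.9% in the pseudogene *Krt8-ps*. How far this shifts the level of *Krt8* was not tested. *Krt8-ps* was at 8.18 ± 1.46 TPM (SD, n = 3) in WT and 9.73 ± 0.935 TPM (SD, n = 3) in KO cells at day 3, and at most 0.673 TPM in every library at day 0 and day 1. At day 3 it had 31 to 44 reads in WT and 38 to 48 in KO libraries, where *Krt8* had at least 23626 in each. The shared part was under 1% for *Krt7*, *Krt18*, *Krt19* and *Krt42*. It was 0.234% for *Krt42*, all with *Krt17*. *Gm671* overlaps *Krt7* on the other strand, and *Gm36026* overlaps *Krt8* on the other strand. Whether the counting used strand is not given in the sources used here, and their group means were at most 0.597 TPM for *Gm671* and 0.426 TPM for *Gm36026*.

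The keratin mRNA of these cells changed its make-up as well as its amount. Summed over the 54 keratin genes, of which 12 were at 0 in every library, it was 162.9 TPM in WT and 396.8 ± 31.4 TPM (SD, n = 3) in KO cells at day 0, 154.5 and 180.2 TPM at day 1, and 5799.7 and 5397 TPM at day 3. At day 0 *Krt17* alone was 37.0% of it in WT and 56.1% in KO cells, *Krt8* 23.6% and 16.8%, and *Krt42* 15.9% and 15.5%. By day 3 *Krt8* was 48.5% and 52.2%, *Krt18* 38.2% and 39.6%, and *Krt19* 12.1% and 6.97%, so that the 5 members together made up 98.9% and 99.2%. At day 1 *Krt8* held 40.1% in WT and 41.8% in KO cells and *Krt18* 21.5% and 24.1%. *Krt20* then held 9.19% in WT against 1.98% in KO cells.

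**Figure D2:**
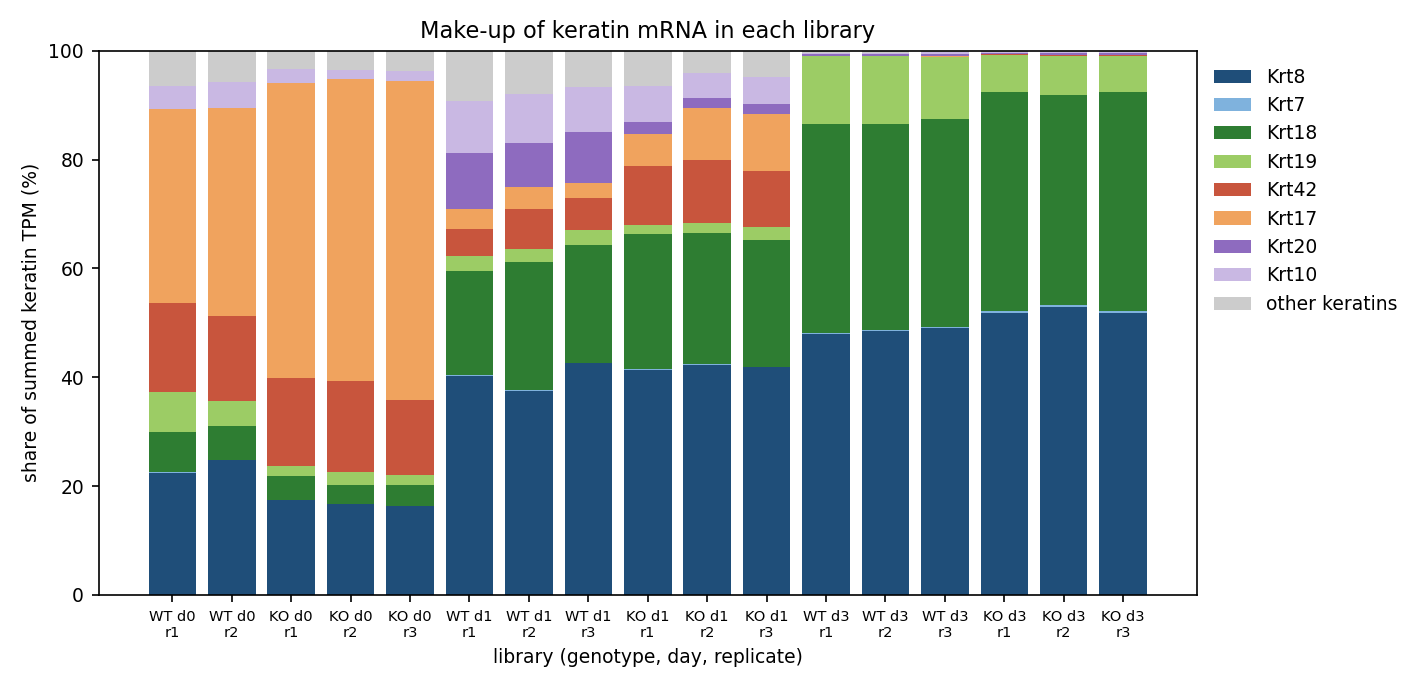
Share of the summed keratin TPM (percent, linear axis) taken by each named keratin in each of the 17 libraries (r, replicate). Orange and red (*Krt17* and *Krt42*) shrink and dark blue and dark green (*Krt8* and *Krt18*) grow from day 0 to day 3, when the members hold at least 98.9% in each library.

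Since filaments pair type I with type II proteins, the ratio of the summed mRNA of the types was described. It was 0.385 and 0.358 in the WT libraries at day 0 and 0.220, 0.209 and 0.205 in the KO, an excess of type I in both. At day 1 it was 0.804 ± 0.0836 (SD, n = 3) in WT and 0.790 ± 0.0162 (SD, n = 3) in KO cells. At day 3 it was 0.931, 0.955 and 0.973 in WT and 1.10, 1.14 and 1.10 in KO cells, close to 1 in both and without overlap. The numerator at day 3 was nearly all *Krt8*, so the ratio carries the limit given above for the reads of *Krt8*. *Krt8* over the sum of its partners *Krt18* and *Krt19* fell over the treatment, from 1.90 and 2.83 at day 0 to 1.67 and 1.61 at day 1 and to 0.964 and 1.12 at day 3, in WT and KO cells in turn. The WT libraries at day 0 gave 1.51 and 2.29 for this ratio, the lower of them in the library that stands apart. These are ratios of mRNA, not of protein.

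**Figure D3:**
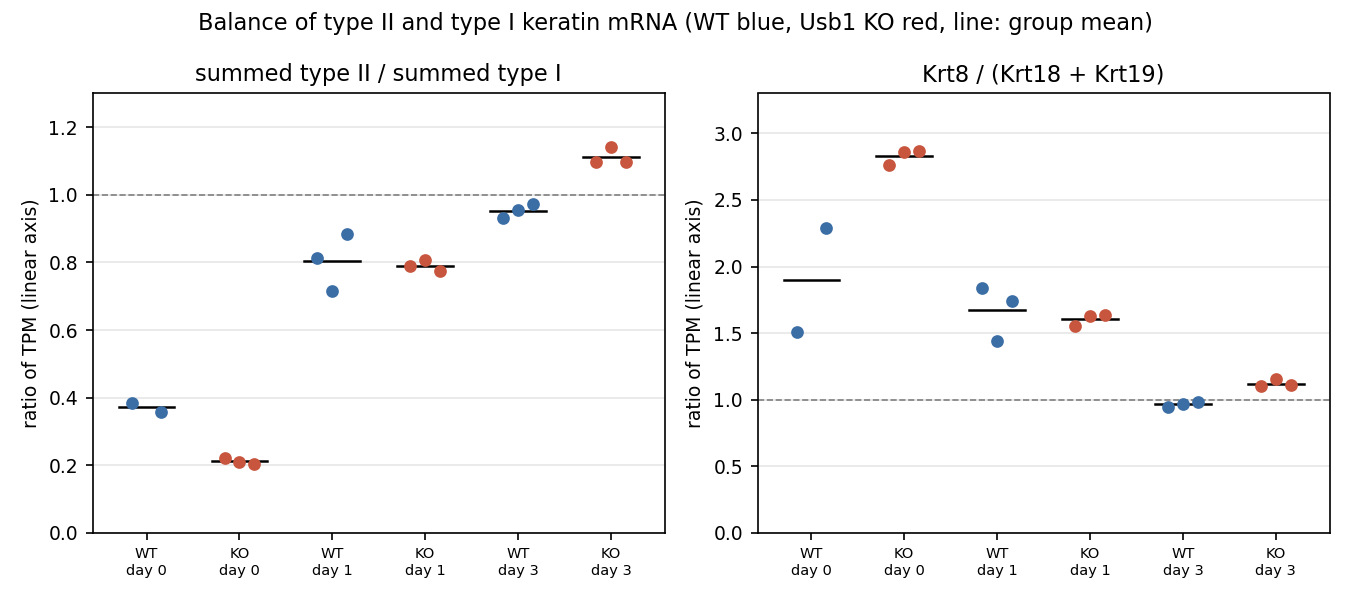
Ratio of summed type II to summed type I keratin TPM (left) and of *Krt8* to *Krt18* plus *Krt19* (right) in each library, on linear axes, with lines at group means and a dashed line at 1. The left ratio climbs from 0.372 and 0.211 at day 0 to 0.953 and 1.11 at day 3 in WT and KO cells.

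Of the 49 other keratin genes, 38 did not reach 1 TPM in 2 libraries and were not tested. The other 11 were *Krt17*, *Krt20*, *Krt10*, *Krt15*, *Krt13*, *Krt4*, *Krt28*, *Krt222*, *Krt71*, *Krt16* and *Krt88*. For RA at day 3, 3 of these 11 rose and 2 fell in WT cells, and 4 rose and 3 fell in KO cells, where 25.8% and 21.9% of all tested genes were called in either direction. The KO counts rest in part on *Krt88*, with 1 to 8 reads at day 3, whose log2 change fell under 2-fold without replicate 1 of the KO at day 3 (0.82), without replicate 2 (0.87) and after quantile (0.98) or equal-median scaling (0.99), and on *Krt16*, at -0.99 without replicate 3 of the KO at day 0. After 1 day, 3 rose and 2 fell in WT cells, and 1 rose and 2 fell in KO cells, against 13.9% and 6.95% of all tested genes. The 3 were *Krt20*, *Krt28* and *Krt71*, and the latter pair had at most 28 reads in any WT library at day 1. *Krt28* was at 0.71 (adjusted p = 0.225) without the WT library that stands apart, its adjusted p was 0.0550 without WT replicate 1 at day 1 and 0.126 with only the libraries of the comparison, and after quantile normalization *Krt28* and *Krt71* were at 0.95 and 0.94, which left 1 that rose. For the KO, 2 of 11 were higher at day 0 (both calls end without the WT library that stands apart), 1 was higher and 1 lower at day 1, and 2 were lower at day 3 (without replicate 1 of the KO at day 3, 1 was also higher). Of all tested genes 3.05%, 2.22% and 1.29% were called on those days. *Krt6a*, a keratin of skin appendages, was seen only in the WT library at day 0 that stands apart, at 2.08 TPM.

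*Krt17*, the neighbour of *Krt42*, was the most abundant keratin at day 0 and followed *Krt42* across the libraries (Pearson r of log2 values 0.929 over 17 libraries, which share their groups). It was at 60.3 ± 2.83 TPM (SD, n = 2) in WT and 223 ± 24.0 TPM (SD, n = 3) in KO cells at day 0. At day 1 it had fallen to 5.46 and 15.6 TPM, and by day 3 to 0.291 and 1.44 TPM. The KO libraries at day 3 were at 0.125, 3.38 and 0.823 TPM, with 1, 23 and 6 reads, so that mean rests mostly on replicate 2. *Krt17* was higher in the KO at day 0 (log2 change 1.86 ± 0.40, SE, limma adjusted p = 0.00927) and at day 1 (1.34 ± 0.36, SE, adjusted p = 0.0205). At day 3 the log2 change was 0.71 with an adjusted p of 0.318. Without the WT library that stands apart the day 0 change was 1.82 with an adjusted p of 0.0645, and with a pseudocount of 0.1 it was 1.88 with 0.132, so the call did not hold there. The day 1 call ended when any of 4 libraries of that day was left out (adjusted p up to 0.0948) and with a pseudocount of 0.1 (adjusted p = 0.186). *Krt13*, a keratin of stratified mucosa, was at 3.204 and 7.81 TPM at day 0 and was higher in the KO (1.11 ± 0.26, SE, adjusted p = 0.0153). Without that WT library it was 0.71 with an adjusted p of 0.174, and without replicate 3 of the KO 0.98 with 0.0584. *Krt17* and *Krt13* fell with RA in both genotypes, *Krt17* with log2 changes of -5.59 in WT and -6.75 in KO cells at day 3 (adjusted p = 2.24e-08 and 7.54e-10). The pseudocount of 1 holds down falls to levels this low: the log2 ratios of mean TPM were -7.69 in WT and -7.27 in KO cells. The difference between these responses was not called (-1.16, limma adjusted p = 0.222).

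*Krt20*, *Krt15* and *Krt4* rose with RA as the simple keratins did, and each was lower in the KO at a day of treatment. *Krt20*, a keratin of gut epithelium, was listed at 0 in both WT libraries at day 0 and reached 14.2 ± 1.90 TPM (SD, n = 3) in WT against 3.57 ± 0.296 TPM (SD, n = 3) in KO cells at day 1. The difference at day 1 was -1.73 ± 0.13 (SE, adjusted p = 1.14e-06). Its day 3 levels were 29.0 and 18.5 TPM, a difference of -0.63 that did not reach the 2-fold threshold. *Krt15*, a keratin of basal epidermal cells and a neighbour of *Krt19*, was at 11.1 ± 1.403 TPM (SD, n = 3) in WT and 4.21 ± 0.333 TPM (SD, n = 3) in KO cells at day 3 (log2 change -1.21 ± 0.17, SE, adjusted p = 5.37e-04, and 0.237 with a pseudocount of 0.1). *Krt4*, a type II keratin of stratified mucosa, was at 5.95 and 1.70 TPM at day 3 (-1.37 ± 0.27, SE, adjusted p = 0.00535). *Krt10*, which marks differentiated epidermis, lay between 6.83 and 14.7 TPM in all libraries and was not called in any comparison. *Krt5* and *Krt14*, the pair of basal epidermis, were at most 1.91 TPM, in the WT library that stands apart, and 0.724 TPM.

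**Figure D4:**
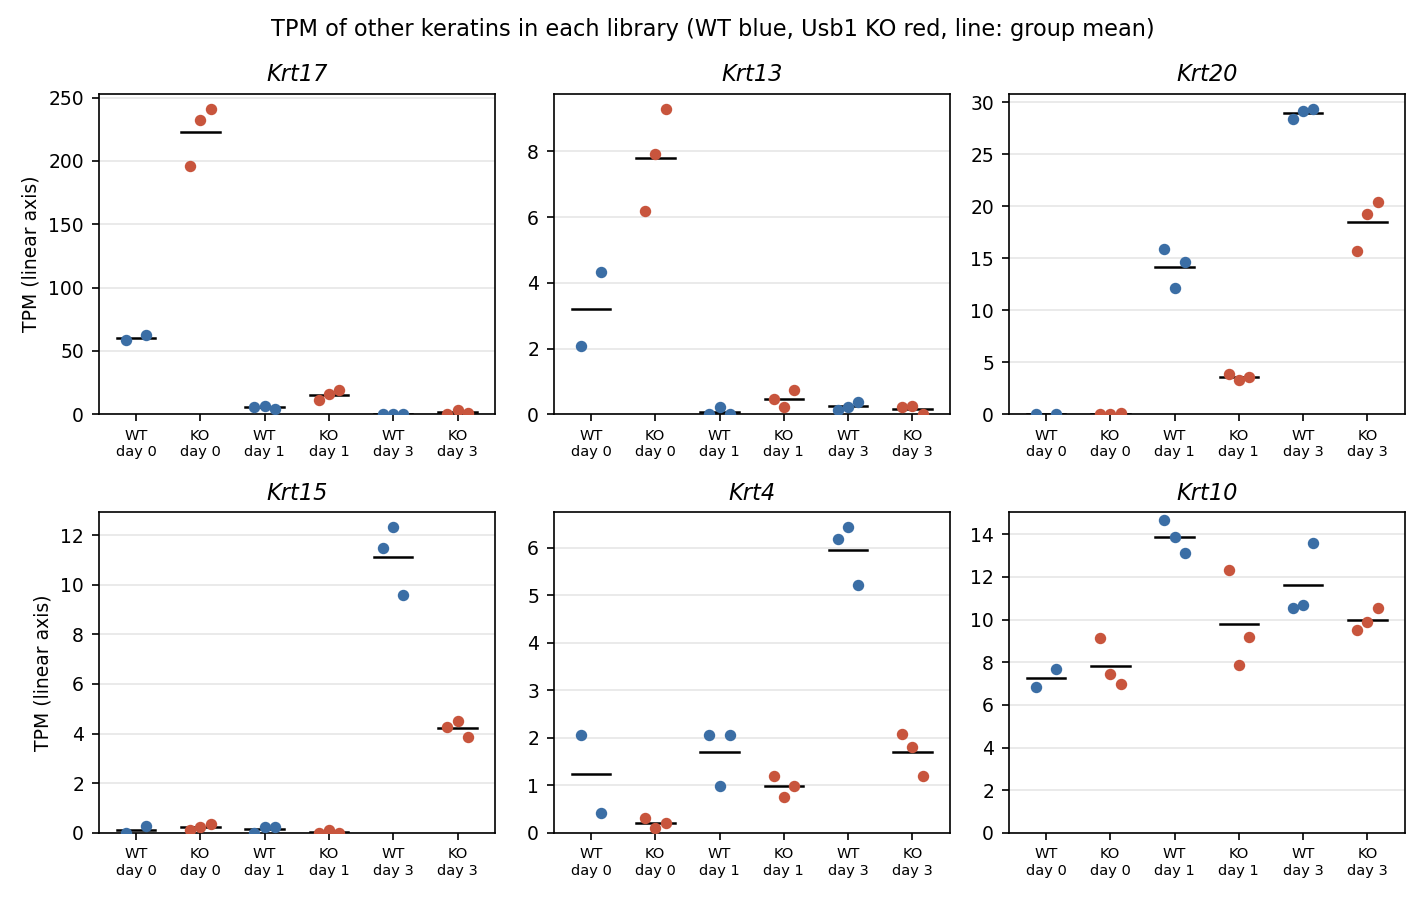
TPM (linear axes, each panel with its own range) of 6 other keratins in each library, with WT in blue, KO in red and a line at each group mean. *Krt17* and *Krt13* are highest in the KO at day 0, while *Krt20*, *Krt15* and *Krt4* are highest in WT cells at day 3.

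Keratin filaments are anchored at desmosomes, and of 17 tested genes for desmosomes and keratin linkers, 3 rose and 1 fell in WT cells at day 3 of RA and 4 rose and 1 fell in KO cells. These shares at day 3 are near those of all tested genes, of which 25.8% were called in WT and 21.9% in KO cells. At day 1, 4 rose and 4 fell in WT cells, and 2 rose and 5 fell in KO cells. Of all tested genes 13.9% and 6.95% were called then. Without the WT library that stands apart, 3 rose and 4 fell in WT cells at day 1. The median log2 change of the list at day 3 was 0.06 in WT and -0.02 in KO cells, against 0.10 and 0.03 for all genes. *Dsp*, the desmoplakin that ties keratins to the desmosome, rose from 14.6 to 208 TPM in WT (log2 change 3.73 ± 0.14, SE, adjusted p = 2.11e-11) and from 16.4 to 119 TPM in KO cells (2.78 ± 0.13, SE, adjusted p = 1.27e-10). *Dsc2*, a desmosomal cadherin, rose from 2.04 to 99.9 TPM and from 1.85 to 95.1 TPM, and *Ppl*, periplakin, from 2.84 to 7.996 and from 1.54 to 7.12 TPM (in WT cells 0.85 on the log2 scale, under 2-fold, without WT replicate 2 at day 0). *Pkp2*, a plakophilin, rose in KO cells (1.34, adjusted p = 2.82e-07), and its log2 change was 0.62 in WT cells. *Eppk1*, epiplakin, which binds keratin filaments, fell in both genotypes, with log2 changes of -1.67 in WT and -2.23 in KO cells. *Jup* and *Dsg2*, already above 50 TPM at day 0, fell at day 1 in WT (-1.31 and -1.06) and in KO cells (-1.22 and -1.23), and at day 3 their log2 changes from day 0 were 0.06 and -0.13 in WT and both -0.24 in KO cells. Without WT replicate 3 at day 1 the WT change of *Dsg2* was -0.99, under the 2-fold threshold. Between the genotypes, 1 of the 17 was called, against 3.05%, 2.22% and 1.29% of all tested genes at day 0, 1 and 3. *Dsc2* was lower in the KO at day 1 (-1.08 ± 0.15, SE, adjusted p = 2.36e-04). After scaling to an equal median this was -0.85 and after quantile normalization -0.91, under the 2-fold threshold.

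Of 22 tested genes of epithelial junctions and adhesion, 9 rose in WT and 10 in KO cells at day 3, against 25.8% and 21.9% of all tested genes called in either direction. Without the WT library that stands apart 12 rose in WT cells, and without replicate 1 of the KO at day 3, 11 rose in KO cells. The list median was 0.71 in WT and 0.92 in KO cells, against 0.10 and 0.03 for all genes. For the difference between the responses at day 3 the list median was -0.27, with 0 higher and 2 lower. Of all tested genes 2.42% were called in that comparison, with a median of 0.01. The summed level at day 3 was 3061 ± 109 TPM (SD, n = 3) in WT and 2662 ± 158 TPM (SD, n = 3) in KO cells. *Cldn6*, a claudin of early epithelia, rose from 18.1 to 374 TPM in WT (4.31 ± 0.15, SE, adjusted p = 7.74e-12) and from 14.1 to 214 TPM in KO cells (3.83 ± 0.13, SE, adjusted p = 6.36e-12). *Marveld2*, tricellulin, rose by 2.96 and 2.41 on the log2 scale. *Lamb3*, a laminin chain of epithelial basement membrane, rose by 2.66 and 2.51, and it was among the genes whose pattern was closest to that of *Krt19*. *Cdh1*, the epithelial cadherin, was the most abundant gene of the list, at 381 TPM in WT cells at day 0 and 742 TPM at day 3, and did not reach the 2-fold threshold. *Epcam* was already at 93.5 and 147 TPM at day 0. *Cldn4*, a claudin, was higher in the KO at day 0 (38.3 against 114 TPM, 1.54 ± 0.088, SE, adjusted p = 1.71e-07) and at day 1 (34.9 against 116 TPM, 1.70 ± 0.079, SE, adjusted p = 1.30e-08), and it was not called at day 3, when *Krt42* was.

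**Figure D5:**
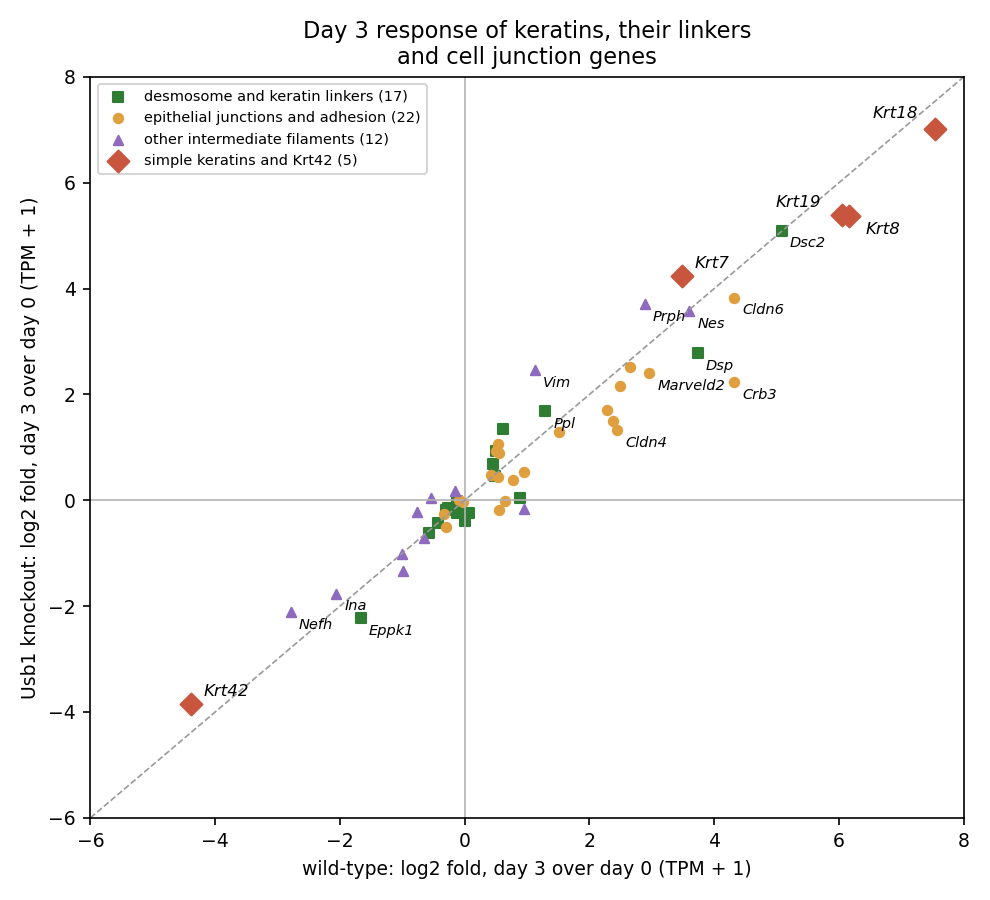
Log2 change of TPM + 1 from day 0 to day 3 in WT (x axis) and KO cells (y axis) for the 5 members (red diamonds), 17 desmosome and linker genes (green squares), 22 junction genes (orange circles) and 12 other intermediate filament genes (purple triangles), with a dashed line of equal change. The 4 simple keratins lie at the upper right, between 3.49 and 7.53 in WT cells, and *Krt42* at the lower left.

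The other intermediate filament genes moved both ways. Of 12 tested, 3 rose and 2 fell in WT cells at day 3, and 3 rose and 4 fell in KO cells, with list medians of -0.59 and -0.19, against 25.8% and 21.9% of all tested genes called and medians of 0.10 and 0.03 over them. Without the WT library that stands apart, 3 rose and 4 fell in WT cells, after scaling to an equal median 2 rose and 4 fell, and without replicate 1 of the KO at day 3, 3 rose and 3 fell in KO cells. *Vim*, the vimentin of mesenchymal and many cultured cells, was at 240.2 TPM in WT and 88.9 TPM in KO cells at day 0, and its day 1 levels were 167 and 58.3 TPM. It was lower in the KO at day 0 (-1.42 ± 0.054, SE, adjusted p = 9.13e-10) and at day 1 (-1.504 ± 0.048, SE, adjusted p = 1.32e-10). By day 3 the levels were 523 and 494 TPM, with a difference of -0.08. *Prph*, peripherin, was likewise lower in the KO at day 0 (-1.29) and at day 1 (-1.07), and it rose with RA in both genotypes. The day 1 difference of *Prph* was under 2-fold after quantile normalization (-0.94), scaling to an equal median (-0.83) and with voom on recovered reads (-0.98). *Nes*, nestin, rose from 6.58 to 87.3 TPM in WT and from 8.51 to 112 TPM in KO cells at day 3. *Nefh* and *Ina*, neuronal filament genes, fell in both. *Lmna*, a nuclear lamin, fell at day 1 in both genotypes (-1.75 and -2.09).

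Of 23 tested transcription and splicing factors known from epithelia, 10 rose and 8 fell in WT cells at day 3, and 7 rose and 5 fell in KO cells, against 25.8% and 21.9% of all tested genes called in either direction. The list medians were 0.21 and -0.06. Without the WT library that stands apart, 11 rose and 6 fell in WT cells. At day 1, 5 rose and 4 fell in WT and 3 rose and 7 fell in KO cells, with list medians of -0.43 and -0.64. Of all tested genes 13.9% and 6.95% were called then, with medians of 0.17 and 0.02. Without that WT library 5 rose and 5 fell in WT cells at day 1. *Gata3*, known from trophoblast and several epithelia, was listed at 0 in WT cells at day 0 and was at 58.4 and 71.6 TPM at day 3. The AP-1 gene *Jun* rose from 5.20 to 104 TPM in WT and from 4.75 to 119 TPM in KO cells, and *Klf6* from 13.5 to 121 and from 19.0 to 122 TPM. *Klf4* and *Klf5*, which are also genes of naive pluripotency, fell in both genotypes, *Klf5* from 479 to 79.5 and from 450.4 to 70.1 TPM. *Tfap2c*, an AP-2 gene of trophoblast, was at 5.69 TPM in WT and 21.4 TPM in KO cells at day 3 (1.76 ± 0.11, SE, adjusted p = 4.08e-07). *Grhl2*, an activator of epithelial junction genes, was at 2.76 and 7.67 TPM at day 0 (1.25 ± 0.27, SE, adjusted p = 0.0104), and without the WT library that stands apart this was 0.91 with an adjusted p of 0.121. With only the libraries of the comparison its adjusted p was 0.118. *Trp63* and *Ehf* were below 1 TPM in every group.

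Simple keratins are made by several cell types that RA-treated embryonic stem cells can give rise to, and the markers of some moved with them. In bulk RNA, fewer cells of a type and less RNA per cell cannot be told apart. Of 23 extraembryonic endoderm markers, 22 rose and 1 fell in WT and 20 rose and 1 fell in KO cells at day 3, with list medians of 4.32 and 3.67 (25.8% and 21.9% of all tested genes were called). Their summed level went from 1802 and 1834 TPM to between 9592 and 11065 TPM in WT, and from between 1618 and 1761 TPM to between 5053 and 6169.9 TPM in KO cells. *Col4a1*, its most abundant gene in WT cells at day 3, was at 2374 TPM there and 1085 TPM in the KO, where *Lamc1* was the most abundant at 1324 TPM. In the KO 5 of the 23 were lower at day 0, 12 at day 1 and 12 at day 3. Of all tested genes 3.05%, 2.22% and 1.29% were called on those days. The day 0 count of the list was 8 with a pseudocount of 0.1, 6 without the WT library that stands apart and 2 with only the libraries of the comparison. At day 3 *Sox17* was at 39.6 and 12.2 TPM, *Cubn* at 87.1 and 30.1 TPM and *Ttr* at 76.3 and 29.2 TPM. On that day *Krt19* was lower in the KO as well, while *Krt8* and *Krt18* overlapped between the genotypes. The part of this cell type in the keratin values was not tested.

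Of 13 tested trophoblast markers, 7 rose and 1 fell in WT and 8 rose and 1 fell in KO cells at day 3, and 4 were higher in the KO then. The shares over all tested genes were 25.8% and 21.9% for RA and 1.29% for the KO. Those 4 were *Tfap2c*, *Gata2* (14.2 against 42.9 TPM), *Hand1* (30.4 against 64.8 TPM) and *Ascl2* (5.08 against 20.7 TPM). With a pseudocount of 0.1 the calls of *Hand1* (adjusted p = 0.305) and *Ascl2* (adjusted p = 0.234) ended, and *Hand1* was under 2-fold (0.97) without WT replicate 2 at day 3. Without the WT library that stands apart 6 markers rose in WT cells, and without replicate 1 of the KO at day 3, 9 rose in KO cells. The summed level at day 3 was 785 ± 137 TPM (SD, n = 3) in WT and 1361 ± 202 TPM (SD, n = 3) in KO cells, mostly *Peg10*, at 589.8 and 1059 TPM. *Prl3d1* and *Tpbpa*, which mark differentiated trophoblast, were at 0 in every library, and *Elf5* had a group mean of at most 0.0333 TPM. *Krt7* was higher in the KO at the same time, and the part of trophoblast markers in that was not tested.

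At day 3 of RA 25.8% of all tested genes in WT and 21.9% in KO cells were called in either direction, with median log2 changes of 0.10 and 0.03. For surface ectoderm, with medians of 0.72 and 1.84, 4 of 9 tested markers rose and 2 fell in WT and 5 rose and 2 fell in KO cells at day 3. This list shares *Krt15*, which rose, and *Krt17*, which fell, with the other keratins counted above. The summed level of the list was 297 and 423 TPM at day 0, 157 and 124 TPM at day 1, and 347 and 399 TPM at day 3. *Perp* or *Krt17* was the most abundant gene, and *Krt17* alone was at 60.3 TPM in WT and 223 TPM in KO cells at day 0. *Trp63* stayed at 0 on day 0 and day 1 in every group. For mesothelium and mesenchyme, with medians of 1.01 and 1.54, 6 of 12 rose and 1 fell in WT and 9 rose and 1 fell in KO cells, with *Fn1* the most abundant at 802 and 1006 TPM at day 3, and without replicate 1 of the KO at day 3, 8 rose in KO cells. Their summed level was 507 and 505 TPM at day 0 and 899 and 1137 TPM at day 3. *Msln*, mesothelin, fell with RA and was higher in the KO at day 0 (18.2 against 56.1 TPM, 1.62 ± 0.23, SE, adjusted p = 5.86e-04) and at day 1 (3.58 against 11.4 TPM). With only the libraries of the comparison the day 0 adjusted p was 0.0721. For fibroblasts, with medians of 2.53 and 3.46, 4 of 5 tested markers rose in each genotype and 1 fell in WT cells, and the summed level was at most 9.01 TPM in any library at day 0 and day 1. At day 3 it was between 44.5 and 54.2 TPM in WT and between 71.7 and 80.3 TPM in KO cells, without overlap. On that day 1 of the 5 was higher in the KO, where 1.29% of all tested genes were called. Whether these cells had a part in the keratin values was not tested.

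The pluripotency genes fell as the simple keratins rose: 9 of 10 were lower at day 3 in each genotype, where 25.8% and 21.9% of all tested genes were called. Their summed level was 6097 and 6371 TPM at day 0, 3556 and 4311 TPM at day 1, and 605 and 849 TPM at day 3. At day 0, when *Krt42* and *Krt17* were higher in the KO, the list median was 0.05. At day 3, 3 of the 10 were higher in the KO, against 1.29% of all tested genes called. Among them was *Nanog* (22.6 against 87.2 TPM, 1.90 ± 0.067, SE, adjusted p = 4.27e-10). Of 13 RA targets, 12 rose at day 1 in WT and 11 in KO cells, and 6 were lower in the KO at day 1, among them *Stra8* at 869 against 396 TPM (of all tested genes 13.9%, 6.95% and 2.22% were called). After scaling to an equal median 3 of the 13 were lower and 1 higher, and *Stra8* was at -0.89, under 2-fold. *Stra8* was already lower in the KO at day 0 (-1.22 ± 0.078, SE, adjusted p = 5.88e-07, and 0.0506 with only the libraries of the comparison). Its log2 change from day 0 to day 1 was 5.05 in WT and 5.14 in KO cells. *Krt20* was lower in the KO at day 1, while *Krt18* was not. The part of the RA response in the keratin differences was not tested.

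Within the members, *Krt8* and *Krt18* had the closest patterns (Pearson r 0.990 of log2(TPM + 1) over 17 libraries). *Krt7*, *Krt8*, *Krt18* and *Krt19* had r of 0.943 to 0.990 among themselves, and *Krt42* had r of -0.892 to -0.821 with them. The points fall into the groups of day and genotype, so these values mostly restate the rise at day 3. Among 10355 protein-coding genes with a group mean of at least 10 TPM, the closest to *Krt8* were *Acta1*, a muscle actin (r = 0.996), *Cnn2*, a calponin, and *Nr2f2*, an orphan nuclear receptor induced by RA. The closest to *Krt18* were *Tpm4*, a tropomyosin (r = 0.995), *Rnf128* and *Rbbp7*. *Acta2*, smooth muscle actin, *Cyp1b1* and *Hand1* were closest to *Krt7*, with *Acta2* going from 0 TPM in both genotypes at day 0 to 109 and 142 TPM at day 3. *Man1a*, *Lamb3* and *Lpar6* were closest to *Krt19*. For *Krt42* the closest were *Twistnb*, *Ruvbl1* and *Ybx1* (r = 0.980 to 0.981), which fell in far smaller steps, *Ybx1* from 1579 to 904 TPM in WT and from 1794 to 1052 TPM in KO cells.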

How the data were processed

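RNA-seq libraries of WT and *Usb1* KO cells were given as 1 table of TPM values, which the authors made with HISAT2 2.1.0 and StringTie 1.3.6 on GRCm38.p6, per the submitters' processing notes. Columns of the table were matched to samples by title, and 0 columns were left without a sample. Reads per gene were recovered from TPM and GENCODE exon lengths (95.9% to 96.7% of values came out whole within 0.01). Genes with at least 1 TPM in at least 2 libraries (21871) were tested with limma 3.58.1 (R 4.3.3, trended variance) on log2(TPM + 1) with 6 group means, and p-values were Benjamini-Hochberg adjusted over all tested genes. The fit was tested on simulated data. The study describes the repeats as independent biological replicates. The members, gene lists and tests were chosen with earlier results of these data known. Named genes are members, keratins with a group mean of at least 1 TPM, the called genes of largest change in each list, the most abundant gene of a cell type list, its defining markers, and the 3 genes closest in pattern to each member. A few list genes (*Krt5*, *Krt14*, *Jup*, *Dsg2*, *Pkp2*, *Cdh1*, *Epcam*, *Nanog*, *Sox17*, *Ttr*) were named after their values were seen. A gene of the junction list is counted in its list and is otherwise not reported here. Alternatives were the pseudocount, the filter, the scaling, the call rule, the libraries fitted, a replicate block, robust variance, leaving out each library, and voom on recovered reads, the last chosen after seeing the data. Promoter windows were found for 4 of the 5 members (*Krt19* had none).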

Additional observations from a re-analysis of the deposited data

Results flagged for a closer look

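Among the genes reported here, the RA response of 6 of the keratin, junction and intermediate filament lists differed between WT and KO cells by limma's interaction term (adjusted p under 0.05, at least 2-fold). Tested were 11 keratins beside the 5 members, 22 junction genes and 12 other intermediate filament genes. Of all tested genes 0.86% were called at day 1 and 2.42% at day 3. Each value is the log2 response in KO minus that in WT cells. *Krt20* at day 1 had -1.78 ± 0.20 (SE, adjusted p = 5.78e-04), with both WT libraries at day 0 listed at 0. With voom on recovered reads its adjusted p was 0.127. *Krt15* at day 3 had -1.36 ± 0.26 (SE, adjusted p = 0.00788), and the adjusted p was 0.175 with a pseudocount of 0.1 and 0.119 with voom. *Vim* at day 3 had 1.34 ± 0.072 (SE, adjusted p = 1.14e-07). *Cldn4* at day 3 had -1.12 ± 0.12 (SE, adjusted p = 1.42e-04), and *Nefl* at day 3 had -1.12 ± 0.22 (SE, adjusted p = 0.0104). *Crb3* had -2.07 ± 0.45 (SE, adjusted p = 0.0311) at day 1 and -2.08 ± 0.45 (SE, adjusted p = 0.0161) at day 3. Without WT replicate 1 at day 0, the library that stands apart, the *Crb3* values were -1.42 (adjusted p = 0.120) and -1.44 (adjusted p = 0.0685), while the calls of the other 5 genes held. The day 1 call of *Crb3* also ended without any of 7 other libraries of day 0 and day 1 (adjusted p of 0.0559 to 0.0744), with a pseudocount of 0.1 (0.0621), after quantile (0.0503) or equal-median scaling (0.0556) and with only the libraries of the comparison (0.0895), where the day 3 call ended too (0.05496). The day 1 and day 3 values share their day 0 libraries.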

How the results depend on the processing

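No called result changed sign, but some log2 changes of members that were not called did. For the KO at day 0, *Krt19* went from -0.24 to 0.07 without the WT library that stands apart. In the same comparison *Krt7* went from -0.085 to 0.21 with voom on recovered reads. Of 1080 alternative values for the log2 changes of the members, 996 moved by less than the spread and 84 by more. Of 6040 values for named genes, 129 lost their call. The numbers of genes called were 668, 485 and 283 for the KO at day 0, 1 and 3, 3033 and 5640 for RA at day 1 and 3 in WT and 1519 and 4782 in KO cells, and 188 and 529 for the difference between the responses. With adjusted p alone they were 2598, 3789, 1645, 8311, 11396, 6066, 11258, 488 and 1345. With only the libraries of the comparison, 73 genes were called for the KO at day 0 and 258 for the difference at day 3. With voom, 1280 were called for the KO at day 0 and 2317 for RA at day 1 in KO cells. Leaving out a library gave 384 to 2282 for the KO at day 0, 390 to 527 at day 1 and 263 to 305 at day 3, 2536 to 4481 and 5431 to 6712 for RA in WT, 1380 to 1607 and 4711 to 4862 in KO cells, and 101 to 1822 and 353 to 1968 for the difference. The counts without WT replicate 1 or 2 at day 0 rest on 1 library in that group, which is assumed to vary like the others. Scaling to an equal median moved the share of higher calls from 52.4% to 67.2% for the KO at day 0, from 20.8% to 46.2% at day 1, from 72.0% to 58.3% and from 62.4% to 51.9% for RA in WT at day 1 and 3, from 63.2% to 44.8% for RA at day 3 in KO cells, and from 21.8% to 33.6% and from 48.4% to 36.8% for the difference. Quantile normalization gave 43.8% for the KO at day 1, 51.4% and 51.9% for RA in WT, and 50.3% for the difference at day 1. Same-numbered samples did not deviate together (r of -0.130 to 0.124, median -0.0035, over 40 pairs), and the replicate block gave 610, 473, 277, 2991, 5622, 1510, 4774, 143 and 471 calls, in the order above. Depth limits *Krt7* before day 3 and *Krt42* in WT cells at day 3, where few reads stand behind a value.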
